A study of Homo sapiens with 6 samples.

Results

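The genes described here encode hepatic acute-phase proteins, plasma proteins that the liver secretes in different amounts during inflammation. The members were chosen by symbol, as a list of 10 genes: HP, HPX, ORM1, ORM2, CRP, SAA1, SAA2, SAA4, LBP and HAMP. Of these, 9 were found among the 34036 genes of the count table, and SAA2 was not analysed here. A filter on low counts left 6 of the 9 for testing (HP, HPX, ORM1, ORM2, SAA4 and HAMP), among 14476 genes tested in all.

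RNA of HepG2 cells, a human line derived from a hepatocellular carcinoma, was sequenced 48 h after transfection with siRNA. The siControl group (n = 3) received a non-targeting siRNA and the siDGUOK group (n = 3) a pool of siRNAs against DGUOK, which encodes the mitochondrial kinase that phosphorylates deoxyguanosine. The comparison asks how the level of each transcript differs once DGUOK is lowered. Groups were read from the sample titles, because a treatment entry in the labels gives the control siRNA for each of the 6 samples. The groups share 1 tumour-derived line, the transfection reagent and the time point, and the effects of the individual siRNAs of the pool cannot be told apart. The labels number the replicates but do not say that they were separate cultures, so the p-values measure the spread between these libraries, which may be technical. Gene totals were 19065684, 18915508 and 10527216 counts in siControl replicates 1, 2 and 3, and 18613138, 15978314 and 21334876 counts in siDGUOK replicates 1, 2 and 3.

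In the acute-phase response, interleukin 6 and interleukin 1 released by immune cells reach hepatocytes and act through STAT3, C/EBP factors and NF-kB on the promoters of plasma protein genes. Positive acute-phase proteins such as haptoglobin, C-reactive protein and serum amyloid A then rise in plasma, whereas negative ones such as albumin and transthyretin fall. Most of these genes are also read at a basal rate that depends on hepatocyte factors of the HNF4, FOXA and C/EBP families, and HepG2 cells retain part of that programme.

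The targeted transcript was measured first. DGUOK stood at 54.4, 53.1 and 48.2 CPM, counts scaled to a common library size, in siControl replicates 1, 2 and 3, and at 9.08, 10.5 and 6.72 CPM in siDGUOK replicates 1, 2 and 3. All siDGUOK libraries lay below all siControl libraries, in the direction the titles give.

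Markers of hepatocytes were abundant in every library, with ALB as the most abundant in siControl and TF in siDGUOK libraries, and their summed level differed between the groups. The 8 markers (ALB, APOA1, APOB, TTR, FGB, HNF4A, AFP and TF) summed to 45119, 38970 and 38723 CPM in siControl replicates 1, 2 and 3, against 18925, 16494 and 14799 CPM in siDGUOK replicates 1, 2 and 3. In edgeR's quasi-likelihood test with Benjamini-Hochberg adjustment, 8 of the 8 were called lower, beside 6.68% of all genes tested. Called means an adjusted p under 0.05 together with a log2 fold change of more than 0.5 up or down. HNF4A, at −0.51, lost its call without siControl replicate 1 or without siDGUOK replicate 3. The lower acute-phase transcripts described below therefore lay beside a lower level of these 8 markers, and fewer cells of a type and less RNA per cell cannot be told apart in these bulk libraries.

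Before the members are described, siDGUOK replicate 2 has to be set apart. The 5 endothelial markers summed to 58.5 CPM there, with VWF as the most abundant at 510 counts, against 4.48 and 4.05 CPM in siDGUOK replicates 1 and 3 and 1.39 to 2.29 CPM in the siControl libraries, so that each siDGUOK library lay above each siControl library. The 4 T cell markers summed to 22 CPM there, led by TRBC2 with 150 counts, against 4.38 and 1.66 CPM in siDGUOK replicates 1 and 3 and 1.72 to 2.77 CPM in the siControl libraries. STAB2 (endothelial) and MARCO (macrophage) had 0 counts in all 6 libraries. TRBC2 was called higher and was the 1 called gene of the endothelial and T cell lists, and the 4 macrophage markers tested were not called. TRBC2 had 34 and 36 counts in siDGUOK replicates 1 and 3, and 0, 12 and 0 counts in siControl replicates 1, 2 and 3. The macrophage sum, from 1614 to 1702 CPM in siControl and from 1756 to 1899 CPM in siDGUOK libraries, was nearly all LYZ (up to 38332 counts). Of the stellate markers, COL1A1 was called higher and PDGFRB lower. COL1A1 had 9, 37 and 11 counts in siControl replicates 1, 2 and 3, and 374, 336 and 379 in siDGUOK replicates 1, 2 and 3. The stellate sum lay between 36.7 and 43.4 CPM in siControl and between 47.1 and 55.3 CPM in siDGUOK libraries. ACTA2 was its most abundant gene and was not called (log2 fold change −0.18). Values without siDGUOK replicate 2 are given below where a result rests on it.

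Of the 6 members tested, edgeR's quasi-likelihood test called 2 lower in siDGUOK cells (HP and HPX) and 0 higher. Over all genes tested, 14.1% were called in either direction, 6.68% lower and 7.42% higher. At the adjusted p alone, 3 members passed, with ORM2 beside HP and HPX, all lower, against 9.35% of all genes lower and 19.7% in either direction. At an unadjusted p under 0.05, edgeR gave 4 members lower, SAA4 among them, and 0 higher, against 14.7% of all genes lower and 30.6% in either direction. The siControl and siDGUOK libraries did not overlap for 5 of the 6 members, each lower in siDGUOK, against 17.3% of all genes lower and 36% in either direction. The median log2 fold change of the 6 was −0.69, beside 0.02 over all genes tested. DESeq2 also called 2 lower and 0 higher, and without siDGUOK replicate 2 edgeR called 2. Because the count filter acts on the measured levels, these counts describe the 6 members that could be tested and not the list of 10.

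**Figure D1:**
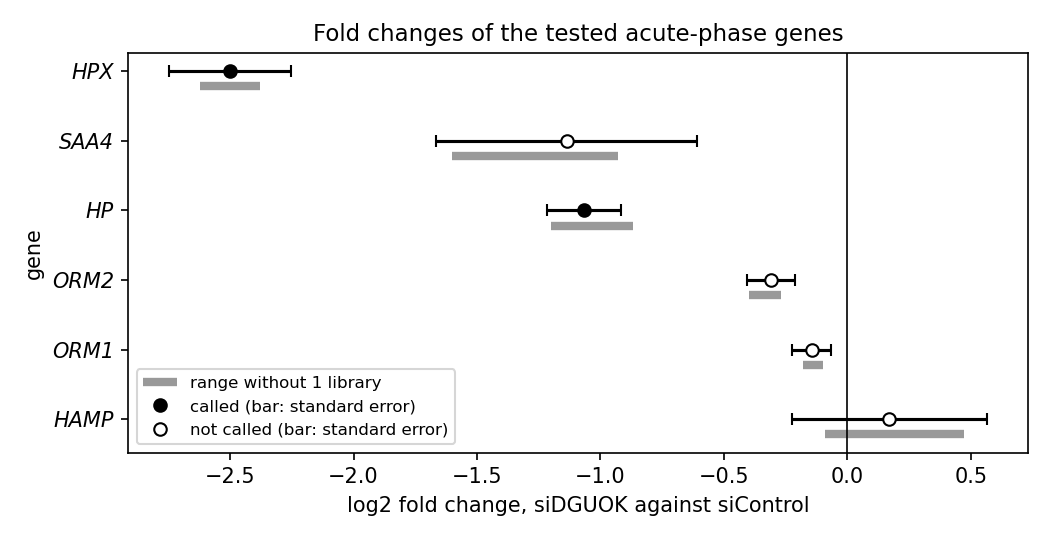
Log2 fold change of each tested acute-phase gene, siDGUOK against siControl (n = 3 each), with its standard error as the thin bar, filled where the gene was called. The grey bar gives the range of the fold change when each library was left out in turn. HPX lies farthest from 0, at −2.50, and the grey bar of HAMP crosses 0.

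HPX encodes hemopexin, the plasma protein that binds free heme and carries it to the liver. Its transcript was at 28.1, 20.1 and 24.7 CPM in siControl replicates 1, 2 and 3, and at 4.59, 4.37 and 3.91 CPM in siDGUOK replicates 1, 2 and 3. The 3 siDGUOK libraries were close to each other and far below the lowest siControl library. On average HPX went from 24.3 ± 4.02 to 4.29 ± 0.348 CPM (SD, n = 3), a 5.66-fold lower level. On the log2 scale this is a change of −2.50 with a standard error (SE) of 0.25, called by edgeR's quasi-likelihood test at a Benjamini-Hochberg adjusted p of 6.17e-07. HPX (ENSG00000110169.10) lies at chr11:6431049-6442617 on the minus strand of GRCh38, and none of its 75-base stretches occurs in another annotated gene. Gene IDs carry the version of the count table (Gencode 27), whereas positions of all members are those of Gencode 44.

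Promoters of the members were read as a description of their letters. A window from 250 bases before to 50 bases after the start was found in the RefSeq table for 5 members (HPX, ORM1, CRP, SAA4 and HAMP), and HP, ORM2, SAA1, SAA2 and LBP are only named. Both strands were searched for short motifs, and each share is that of the 35116 windows of all genes that hold the motif. The motifs given here are TTCNNNGAA for STAT (7.66% of windows), TTNNGNAA for C/EBP (36.8%), GGNNTTTCC for NF-kB (6.26%) and GGCGCC for the BMP element (19.2%). The window of HPX, at chr11:6440938-6441237 on the minus strand of GRCh38.p14 (RefSeq), is shown because HPX had the largest fold change of the members, with its match to the C/EBP letters on the opposite strand, in capitals.

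HPX promoter: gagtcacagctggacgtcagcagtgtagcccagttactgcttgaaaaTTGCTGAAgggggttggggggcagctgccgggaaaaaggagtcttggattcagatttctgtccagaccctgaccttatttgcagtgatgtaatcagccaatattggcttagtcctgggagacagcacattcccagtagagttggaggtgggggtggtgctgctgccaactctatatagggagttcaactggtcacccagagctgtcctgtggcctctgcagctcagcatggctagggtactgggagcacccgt

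That match stood 203 to 196 bases before the start. It describes letters only, and the same motif is common in promoter windows of other genes.

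HP encodes haptoglobin, which binds free hemoglobin in plasma. HP stood at 141, 151 and 130 CPM in siControl replicates 1, 2 and 3, and at 75.6, 79.6 and 46.7 CPM in siDGUOK replicates 1, 2 and 3. The groups did not overlap, and siDGUOK replicate 3 was the lowest library. The level went from 141 ± 10.5 to 67.3 ± 17.9 CPM (SD, n = 3), which is 2.10-fold lower. HP was called, with a log2 change of −1.07 (SE 0.15) and a Benjamini-Hochberg adjusted p of 4.02e-05 in edgeR's quasi-likelihood test.

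HP (ENSG00000257017.8) lies at chr16:72054505-72061055 on the plus strand of GRCh38, inside the span of TXNL4B on the other strand, with which it shares 0 exonic bases. Its paralog HPR, which encodes haptoglobin-related protein, starts 2092 bases downstream, and 401 of the 75-base stretches of HP (7.47%) also occur in HPR. Reads of these stretches could be assigned to either gene or dropped, so the split between HP and HPR is uncertain. HPR had 22.5, 28.8 and 20 CPM in siControl replicates 1, 2 and 3, and 7.89, 7.94 and 9.85 CPM in siDGUOK replicates 1, 2 and 3. Here too the groups did not overlap, and HPR was called lower at −1.47 on the log2 scale (SE 0.23), with a Benjamini-Hochberg adjusted p of 1.14e-04 in edgeR's quasi-likelihood test.

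Haptoglobin and hemopexin clear hemoglobin and heme by separate routes, and their transcripts changed by different amounts. For the ratios of counts given here, 1 was added to each count. HP was then at 5.02, 7.50 and 5.25 times HPX in siControl replicates 1, 2 and 3. In siDGUOK replicates 1, 2 and 3 it was at 16.3, 18 and 11.8 times HPX. A ratio within a library does not depend on how libraries are scaled, and every siDGUOK ratio was above every siControl ratio. The mean log2 ratio was 2.54 ± 0.32 in siControl and 3.92 ± 0.32 in siDGUOK (SD, n = 3), a difference of 1.38 (two-sided exact permutation test, p = 0.1, the smallest that 3 against 3 libraries can give, and 0.2 after Benjamini-Hochberg adjustment over the 2 ratios computed).

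**Figure D2:**
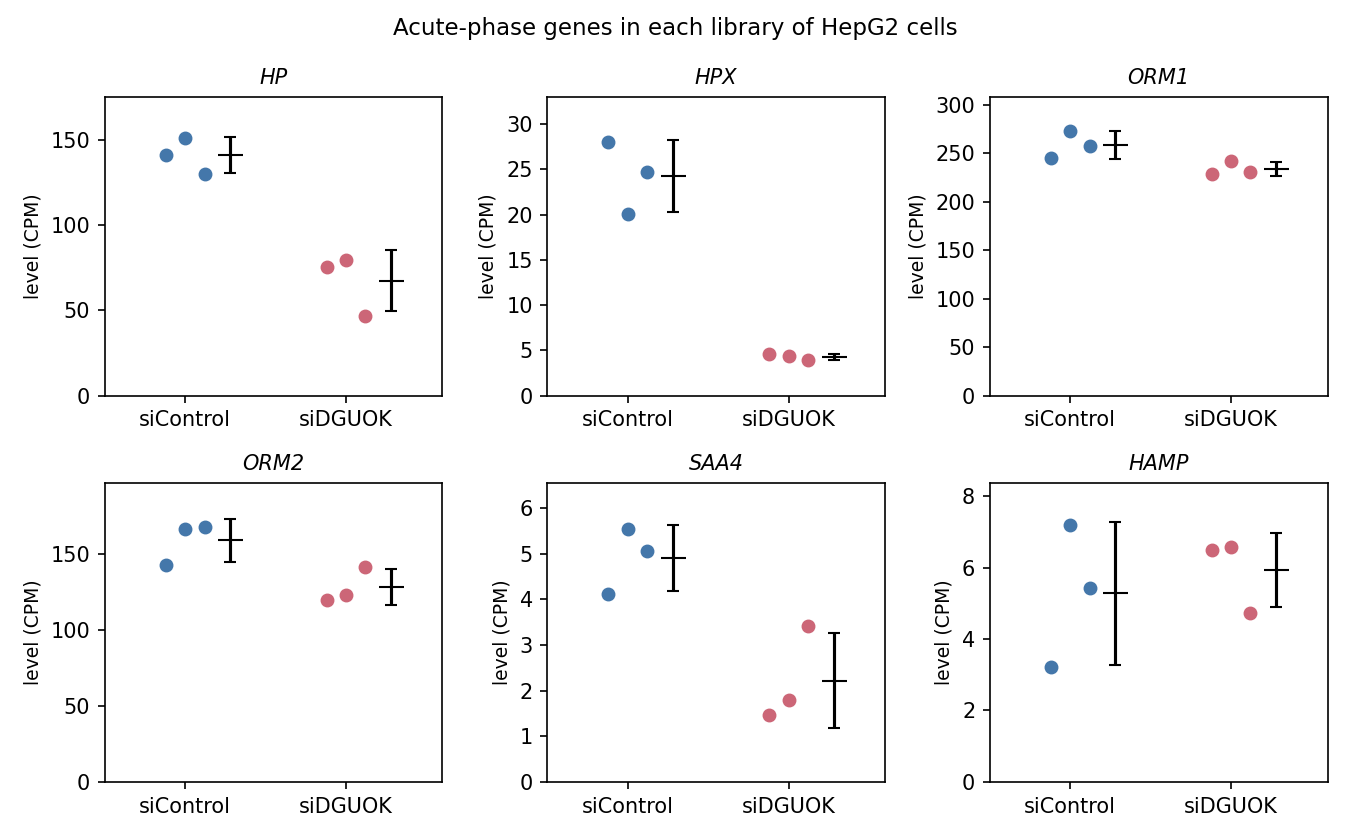
Level of the 6 tested acute-phase genes in each library, in CPM, with the 3 siControl libraries on the left and the 3 siDGUOK libraries on the right of each panel and replicates 1 to 3 from left to right. Bars give the mean and SD of each group (n = 3). All siDGUOK points of HP and HPX lie below all siControl points, whereas those of HAMP overlap.

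ORM1 and ORM2 encode the 2 forms of alpha-1-acid glycoprotein (orosomucoid), a heavily glycosylated plasma protein that binds basic drugs and dampens immune responses. ORM1 was at 245, 273 and 257 CPM in siControl replicates 1, 2 and 3, and at 229, 242 and 231 CPM in siDGUOK replicates 1, 2 and 3. The groups came close without overlapping, as siControl replicate 1 and siDGUOK replicate 2 were nearly level. The log2 difference of ORM1 was −0.14 (SE 0.08), and edgeR's quasi-likelihood test did not call it (Benjamini-Hochberg adjusted p = 0.236).

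ORM2 was at 143, 166 and 168 CPM in siControl replicates 1, 2 and 3, and at 120, 123 and 141 CPM in siDGUOK replicates 1, 2 and 3. Again the groups did not overlap, but the highest siDGUOK library was close to the lowest siControl library. The log2 difference of ORM2 was −0.31 (SE 0.10). Its Benjamini-Hochberg adjusted p of 0.0317 in edgeR's quasi-likelihood test passed, but the size was under the fold threshold, so ORM2 was not called. Over the 14 other settings that adjusted p ran from 0.0126 to 0.15, and it was above 0.05 without any 1 of siControl replicate 2, siControl replicate 3, siDGUOK replicate 1 or siDGUOK replicate 2 (0.0969, 0.15, 0.107 and 0.105).

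The 2 orosomucoid genes are neighbours on the plus strand of GRCh38, with ORM1 (ENSG00000229314.5) at chr9:114323098-114326479 and ORM2 (ENSG00000228278.3) at chr9:114329869-114333251. They share 286 of their 75-base stretches, 36.3% of those of ORM1 and 41.8% of those of ORM2, so the split of reads between them is uncertain. With 1 added to each count, ORM1 was at 1.72, 1.65 and 1.53 times ORM2 in siControl replicates 1, 2 and 3. In siDGUOK replicates 1, 2 and 3 it was at 1.91, 1.97 and 1.63 times ORM2. These ratios overlapped between the groups, with a difference in mean log2 ratio of 0.17 (two-sided exact permutation test, p = 0.3, n = 3 per group). The ORM1 window, at chr9:114322848-114323147 on the plus strand of GRCh38.p14 (RefSeq), is shown as that of the most abundant member, which was not called. Capitals mark 2 matches to the C/EBP letters, of which the second overlaps a match to the NF-kB letters 112 to 104 bases before the start.

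ORM1 promoter: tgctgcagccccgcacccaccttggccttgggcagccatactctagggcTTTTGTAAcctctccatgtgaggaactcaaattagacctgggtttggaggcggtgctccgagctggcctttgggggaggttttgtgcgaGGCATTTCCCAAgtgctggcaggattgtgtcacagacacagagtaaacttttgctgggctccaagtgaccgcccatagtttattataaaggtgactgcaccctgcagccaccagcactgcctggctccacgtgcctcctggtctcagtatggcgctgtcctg

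The windows of HPX and ORM1 thus both hold the C/EBP letters, and only that of ORM1 holds the NF-kB letters. No match says only that these letters are not in the window.

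Serum amyloid A proteins are small apolipoproteins of high-density lipoprotein. SAA1 and SAA2 are the inducible forms and SAA4 is the constitutive form. SAA4 (ENSG00000148965.9) was at 4.11, 5.54 and 5.05 CPM in siControl replicates 1, 2 and 3, and at 1.46, 1.79 and 3.41 CPM in siDGUOK replicates 1, 2 and 3. The groups did not overlap, and siDGUOK replicate 3 stood above the other siDGUOK libraries. At a log2 difference of −1.14 with the wide SE of 0.53, SAA4 was not called (Benjamini-Hochberg adjusted p = 0.153 in edgeR's quasi-likelihood test). These values rest on 27 to 104 counts a library. SAA4 lies at chr11:18231355-18236802 on the minus strand of GRCh38, and 75.6% of its exonic bases are also exons of the readthrough gene SAA2-SAA4, which was not analysed here. Counting at default settings drops a read that lies in exons of both genes where both are annotated, so the SAA4 counts may come from its other exons alone, and its CPM, its TPM and its place in the order of levels are uncertain. The promoter window of SAA4 held 6 matches to the C/EBP letters and none to the other motifs given above.

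SAA1 and C-reactive protein, the acute-phase proteins with the largest induction in human plasma, were at or near 0. SAA1 had 9 counts in siDGUOK replicate 2, the library with the highest endothelial and T cell sums, and 0 counts in the other 5 libraries. As 302 of its 75-base stretches (25.2%) also occur in SAA2, reads of these stretches may have been dropped. CRP, a pattern recognition protein that binds phosphocholine, had 0 counts in all 6 libraries, which over their pooled depth allows up to 0.0287 CPM for counting error alone. Expression of CRP was therefore not detectable at this depth in either group. CRP lies at chr1:159712289-159714589 on the minus strand of GRCh38. Its window, at chr1:159714540-159714839 on the minus strand of GRCh38.p14 (RefSeq), is shown beside those of the expressed members and holds 2 matches to the C/EBP letters, in capitals.

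CRP promoter: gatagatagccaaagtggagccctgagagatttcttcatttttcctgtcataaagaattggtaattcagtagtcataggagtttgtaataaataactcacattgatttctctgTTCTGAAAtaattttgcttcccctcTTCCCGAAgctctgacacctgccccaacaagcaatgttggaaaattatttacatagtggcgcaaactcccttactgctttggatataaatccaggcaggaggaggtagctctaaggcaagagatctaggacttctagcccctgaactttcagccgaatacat

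Its matches stood 137 to 130 and 112 to 105 bases before the start, and no match to the STAT, NF-kB or BMP letters was found in this window.

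LBP encodes lipopolysaccharide-binding protein, which delivers bacterial lipopolysaccharide to CD14. LBP had 2, 0 and 2 counts in siControl replicates 1, 2 and 3, and 3, 22 and 13 counts in siDGUOK replicates 1, 2 and 3. The highest count was in siDGUOK replicate 2, and the lowest siDGUOK library was near the siControl libraries. Pooled and scaled for depth, the siDGUOK count was 8.07 times the siControl count (95% counting interval 2.91 to 31.1), and 4.77 times (1.54 to 19.6) without siDGUOK replicate 2. These intervals cover counting error only. LBP did not pass the count filter, and in the fit without a filter its adjusted p was 0.492 from edgeR's quasi-likelihood test with Benjamini-Hochberg adjustment.

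HAMP encodes hepcidin, the liver hormone that closes the iron exporter ferroportin and so lowers plasma iron. Its promoter is a textbook case of joint control by interleukin 6 through STAT3 and by BMP6 through SMAD proteins. HAMP (ENSG00000105697.7) was at 3.21, 7.19 and 5.43 CPM in siControl replicates 1, 2 and 3, and at 6.48, 6.59 and 4.74 CPM in siDGUOK replicates 1, 2 and 3. The groups overlapped, and the siControl libraries held both the lowest and the highest value. The log2 difference was 0.17 (SE 0.39) and was not called (Benjamini-Hochberg adjusted p = 0.838 in edgeR's quasi-likelihood test), and it was −0.09 without siControl replicate 1. At 57 to 135 counts a library, this SE leaves room for a change in either direction.

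HAMP lies at chr19:35280716-35285143 on the plus strand of GRCh38. The HAMP window, at chr19:35282278-35282577 on the plus strand of GRCh38.p14 (RefSeq), is shown because it was the 1 window of the 5 that held matches to both the STAT and the BMP letters. Capitals mark the BMP letters 105 to 100 bases and the STAT letters 93 to 85 bases before the start.

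HAMP promoter: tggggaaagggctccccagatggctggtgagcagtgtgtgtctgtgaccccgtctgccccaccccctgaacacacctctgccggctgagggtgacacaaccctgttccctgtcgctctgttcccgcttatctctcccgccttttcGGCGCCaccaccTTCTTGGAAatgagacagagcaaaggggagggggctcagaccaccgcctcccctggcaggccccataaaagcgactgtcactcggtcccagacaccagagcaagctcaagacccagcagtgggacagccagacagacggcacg

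No C/EBP match was found in this window, which sets it apart from those of HPX, ORM1, CRP and SAA4 by these letters alone.

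Levels of different genes were compared per transcript length, in TPM, which scales counts by length and library. In siControl cells the order was ORM1 (677 ± 28.1), ORM2 (419 ± 34.8), HP (184 ± 11.3), HPX (31.0 ± 5.52), HAMP (26.0 ± 9.51) and SAA4 (15.6 ± 2.13 TPM, SD, n = 3). HPX and HAMP overlapped in these libraries, as did HAMP and SAA4, and the others were separate. In siDGUOK cells ORM1 (561 ± 66.7), ORM2 (310 ± 54.4), HP (79.6 ± 20) and HAMP (26.6 ± 4.22) led, and HPX, at 4.97 ± 0.319 TPM, came after SAA4, at 6.58 ± 3.54 TPM (SD, n = 3). HPX and SAA4 overlapped there. The order of the 3 lowest depends on the length used. With the summed length of all annotated exons, tried after the data were seen, siControl cells had SAA4 at 28.4 ± 4.31, HPX at 24.4 ± 3.99 and HAMP at 6.72 ± 2.55 TPM, with SAA4 and HPX overlapping and HAMP below both. With those lengths siDGUOK cells had SAA4 at 11.9 ± 7, HAMP at 6.71 ± 1.28 and HPX at 3.84 ± 0.492 TPM (SD, n = 3), with SAA4 and HAMP overlapping and HPX below both. For scale, ALB stood at 14147 ± 2232 TPM in siControl and 4280 ± 550 TPM in siDGUOK cells (SD, n = 3).

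The members together summed to 1279, 1405 and 1373 TPM in siControl replicates 1, 2 and 3, and to 854, 1063 and 1052 TPM in siDGUOK replicates 1, 2 and 3. In CPM the sums were 564, 623 and 590 in siControl replicates 1, 2 and 3, and 436, 459 and 432 in siDGUOK replicates 1, 2 and 3. Every siDGUOK sum was below every siControl sum in both units, but the lowest library was siDGUOK replicate 1 in TPM and siDGUOK replicate 3 in CPM. In siDGUOK replicate 1, 21057 genes had a count, against 16205 to 17583 in the other libraries. Without that library the log2 difference of the summed TPM was −0.355, in place of −0.451 with all libraries. The part of the higher number of genes in the sums was not tested. Orosomucoid made up most of this pool, and ORM1 alone took 50.1% ± 0.555 of it in siControl and 56.7% ± 0.557 in siDGUOK cells (SD, n = 3). The share of HP was 13.6% ± 1.04 in siControl and 8.12% ± 2.14 in siDGUOK cells, and that of HPX was 2.30% ± 0.517 and 0.505% ± 0.0463 (SD, n = 3). No test was run on the sum or on the shares.

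**Figure D3:**
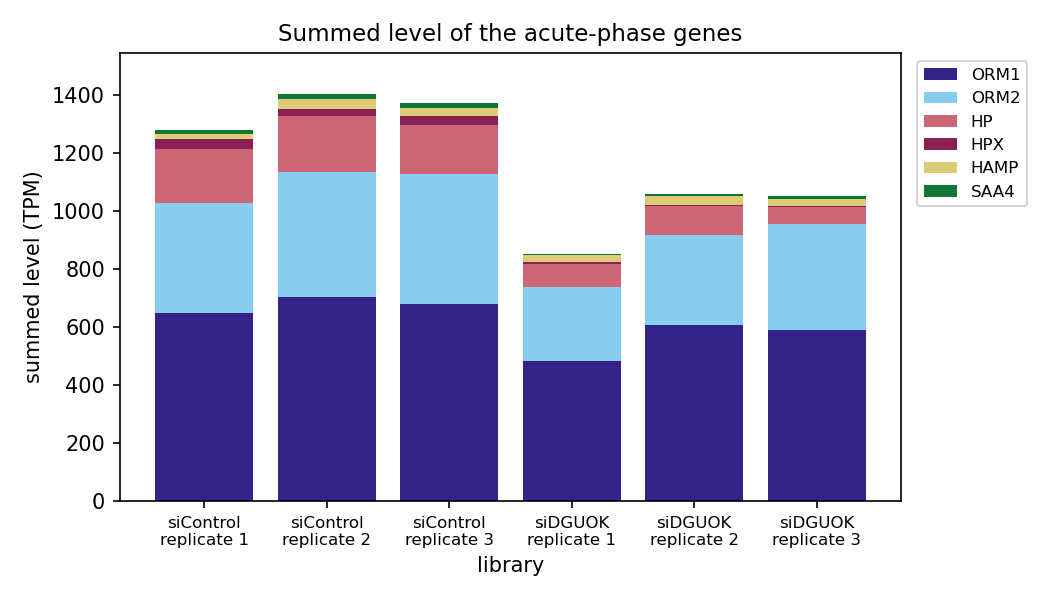
Summed level of the acute-phase genes in each library, in TPM, divided by gene. The 3 siControl libraries reach 1279 to 1405 TPM and the 3 siDGUOK libraries 854 to 1063 TPM, and the HP and HPX segments are shorter in each siDGUOK library.

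As a description of pattern, the genes outside the list whose log2 CPM followed ORM1 most closely over the 6 libraries were SMIM24 (Pearson r = 0.986), EVC (0.986) and ERCC6 (0.985), among 9222 genes searched. Those closest to ORM2 were TM7SF2 (0.988), SDHC (0.986) and LONP1 (0.980). With 6 libraries in 2 groups, such values arise readily in a search this wide, and all share the same libraries and depths.

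Genes around the acute-phase response were counted from lists chosen with earlier results of these data known. Among other positive acute-phase genes, edgeR called 14 of the 20 tested lower and 0 higher (6.68% and 7.42% over all genes tested), with a median log2 fold change of −1.02. DESeq2 also called 14 lower and 0 higher, and at an unadjusted p under 0.05 edgeR gave 15 lower and 0 higher, beside the 14.7% of all genes lower at that threshold. The largest falls were those of the fibrinogen chains FGB, from 1287 ± 108 to 345 ± 64.7 CPM (SD, n = 3, log2 fold change −1.90), and FGA, from 2153 ± 140 to 593 ± 75.6 CPM (SD, n = 3, log2 fold change −1.86). SERPINA1, the antitrypsin gene, named after its values were seen, was at 7770 ± 374 and 7875 ± 552 CPM (SD, n = 3) and was not called. HPR is also on this list. Beside that median, HPX (−2.50) was lower by more and HP (−1.07) by about as much. The other tested members were not called, with SAA4 at −1.14, ORM2 at −0.31, ORM1 at −0.14 and HAMP at 0.17.

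Negative acute-phase genes were lower too: edgeR called 8 of the 12 tested lower and 0 higher (6.68% and 7.42% over all genes), with a median of −1.0. DESeq2 gave the same counts, and so did edgeR at an unadjusted p under 0.05. TTR, which carries thyroxine and retinol-binding protein, went from 171 ± 5.54 to 55.8 ± 5.27 CPM (SD, n = 3, log2 fold change −1.61). ALB went from 16110 ± 2372 to 5401 ± 1038 CPM (SD, n = 3, log2 fold change −1.58), and SERPINA6, the cortisol-binding globulin gene, had a log2 fold change of −1.58. HP and HPX thus moved in the same direction as albumin and transthyretin, which move opposite to haptoglobin in the textbook response. Of the 8 hepatocyte markers, ALB, APOA1, TTR, TF and FGB are also on these 2 lists.

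**Figure D4:**
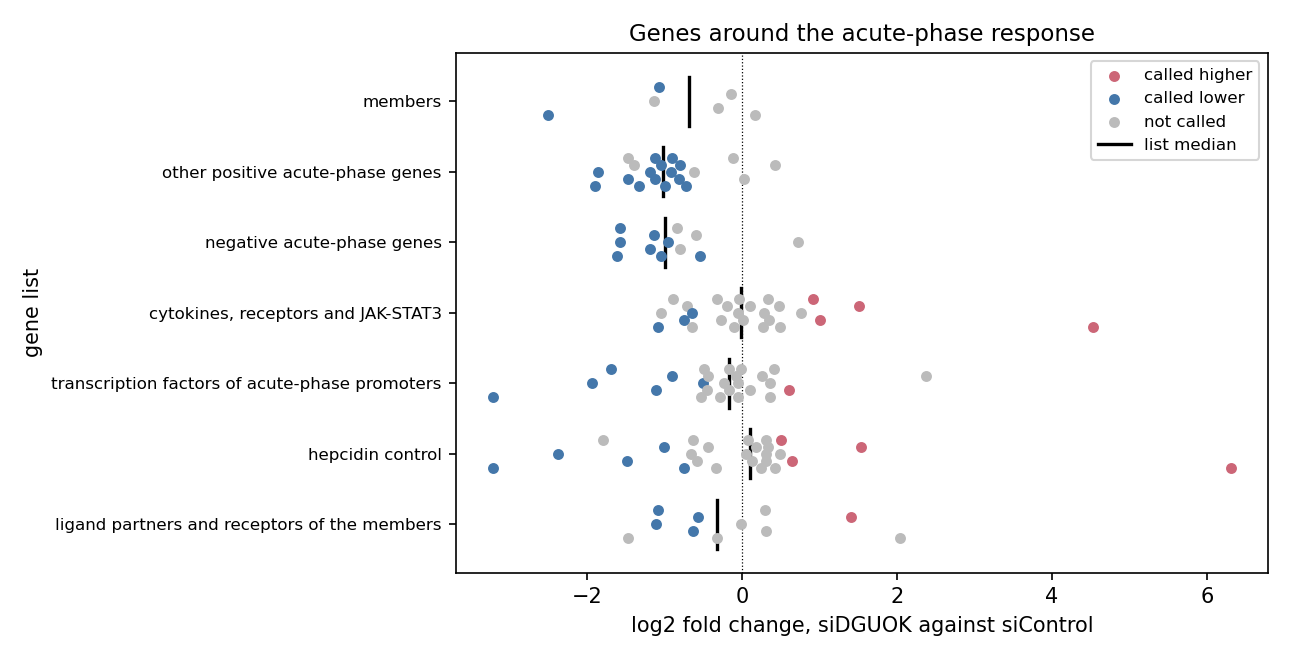
Log2 fold changes, siDGUOK against siControl, of the tested genes of each list, with the list's median as a black line and coloured points for called genes. The medians of the positive and negative acute-phase lists lie at −1.02 and −1.0, and that of the members at −0.69, whereas the cytokine list lies at −0.02.

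Of the cytokine, receptor and JAK-STAT3 genes, 4 of the 26 tested were called higher and 3 lower (7.42% and 6.68% over all genes), with a median of −0.02. IL6R, the ligand-binding interleukin 6 receptor, rose from 23.8 ± 1.20 to 47.6 ± 2.04 CPM, and IL6ST, its shared signalling subunit gp130, fell from 348 ± 63.8 to 222 ± 13.9 CPM (SD, n = 3). The largest rises were those of IL11, a cytokine that also signals through gp130, from 9.43 ± 4.12 to 210 ± 26.9 CPM, and LIF, another such cytokine, from 19.2 ± 6.10 to 54.2 ± 17.7 CPM (SD, n = 3). Among the called genes, the falls were led by the interleukin 1 receptor accessory protein gene IL1RAP (log2 fold change −1.09) and the oncostatin M receptor gene OSMR (−0.75). STAT3 itself was at 160 ± 6.88 and 154 ± 12.2 CPM (SD, n = 3, log2 fold change −0.05, and −0.13 to −0.01 when a library was left out), and SOCS3, a STAT3 target that feeds back on the receptor, differed by −0.71 (SE 0.29) and was not called (Benjamini-Hochberg adjusted p = 0.0949 in edgeR's quasi-likelihood test). IL6, named after its values were seen, had 0 counts in all 6 libraries.

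Among transcription factors of acute-phase promoters, 1 of the 25 tested was called higher and 6 lower (7.42% and 6.68% over all genes), with a median of −0.17, and when a library was left out 0 to 2 were called higher and 5 to 8 lower. CEBPA, the C/EBP factor of resting hepatocytes, fell from 121 ± 6.86 to 55.8 ± 6.76 CPM (SD, n = 3, log2 fold change −1.12). CEBPB and CEBPD, the forms induced in inflammation, had log2 fold changes of 0.26 and −0.28 and were not called. These rest partly on single libraries, with a range of 0.10 to 0.34 for CEBPB and of −0.48 to −0.12 for CEBPD when a library was left out, and neither was called in any setting. The adjusted p alone passed for CEBPB without siDGUOK replicate 2 (0.0382) and for CEBPD without siDGUOK replicate 1 (0.0482). HNF4A had a log2 fold change of −0.51 and was called, but at −0.47 it was not called without siControl replicate 1 or without siDGUOK replicate 3. The largest falls were those of CREB3L3, a liver factor known to act on the HAMP, CRP and serum amyloid P promoters (log2 fold change −3.21), and ONECUT1 (−1.94). CREB3L3 ran from −3.99 to −2.61 and ONECUT1 from −2.45 to −1.70 when a library was left out. In DESeq2 with shrunken fold changes ONECUT1 was at −1.09 and was still called. CREB3L3 had 0 counts in siDGUOK replicate 3 and was not called by DESeq2, where its log2 fold change was again −3.21 (−0.35 when shrunken) and its adjusted p 0.0994. USF1 was called higher, at 0.61, and was not called without any 1 of siControl replicate 2, siControl replicate 3 or siDGUOK replicate 3 (0.61, 0.52 and 0.44).

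Genes that control hepcidin changed in both directions beside a HAMP level that was not called. Of the 26 tested, 4 were called higher and 5 lower, with a median of 0.10, where 7.42% of all genes were called higher and 6.68% lower. When a library was left out, from 1 to 4 of the list were called higher and 5 or 6 lower, so the number of rises rests on single libraries. BMP6, the ligand that raises hepcidin with iron load, had 0, 0 and 3 counts in siControl replicates 1, 2 and 3, and 101, 139 and 90 counts in siDGUOK replicates 1, 2 and 3. Scaled for depth, that is 93.4 times as many (95% counting interval 31.7 to 455, which covers counting error only). All siControl counts came from siControl replicate 3, so the size of the rise is uncertain. The log2 fold change of 6.31 ran from 5.64 to 9.83 when a library was left out and was 1.59 in DESeq2 with shrinkage, and BMP6 was called higher in each of these fits. TFR2, a hepatocyte iron sensor, fell from 143 ± 17.1 to 27.5 ± 3.73 CPM (log2 fold change −2.38), and TMPRSS6, the protease that cleaves the BMP co-receptor hemojuvelin and so restrains hepcidin, fell from 34.5 ± 4.32 to 12.2 ± 4.97 CPM (log2 fold change −1.49, SD, n = 3). CREB3L3 is on this list as well. The hemojuvelin gene HJV, listed under its older symbol HFE2, had 0 counts in all 6 libraries, and HFE, at −0.63, was not called.

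SMAD6, an inhibitory SMAD, was called higher at 0.64, but not without any 1 of siControl replicate 2, siControl replicate 3, siDGUOK replicate 1 or siDGUOK replicate 3 (0.57, 0.62, 0.60 and 0.59). SMAD7, at 0.05, was not called, and its sign turned without siControl replicate 3 (−0.04) and without siDGUOK replicate 1 (−0.09). ID1, at 0.31 (0.20 to 0.44 when a library was left out), was under the fold threshold, and ATOH8, at 1.54, was called but lost the call without siControl replicate 1 (1.25), siControl replicate 3 (1.59) or any 1 of the siDGUOK replicates 1, 2 and 3 (1.54, 1.63 and 1.40), and in the fit with no count filter (1.54). ID2 and ID3, named after their values were seen, stood at 0.12 (0.06 to 0.17 when a library was left out), which was not called, and at 0.50, which was called, with a Benjamini-Hochberg adjusted p of 0.0152 in edgeR's quasi-likelihood test. ID3 lost the call in 8 of the 14 other settings, over which it ran from 0.39 to 0.64.

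Receptors and partners of the members were counted last, and 1 of the 11 tested was called higher and 4 lower (7.42% and 6.68% over all genes), with a median of −0.33. HMOX1, heme oxygenase 1, which breaks down the heme that hemopexin delivers, fell from 65.9 ± 10.3 to 30.9 ± 9.04 CPM (SD, n = 3, log2 fold change −1.09). CD36, a scavenger receptor that binds serum amyloid A, had a log2 fold change of −1.11. LY96, the TLR4 co-receptor that takes up lipopolysaccharide brought by LBP and CD14, was called higher at 1.40, and lost the call without any 1 of siControl replicate 1, siControl replicate 2, siDGUOK replicate 2 or siDGUOK replicate 3 (1.45, 1.18, 1.26 and 1.40). Without siDGUOK replicate 2, the library with the highest endothelial and T cell sums, this list had 3 called genes, all lower. The part of endothelial and T cell transcripts in the other results was not tested, beyond the values without that library. For the members these were −2.51 for HPX, −1.20 for HP, −0.17 for ORM1, −0.28 for ORM2, −1.0 for SAA4 and 0.09 for HAMP, all log2 fold changes.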

How the data were processed

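The starting point was the table of gene counts that the authors deposited for 6 HepG2 RNA-seq libraries. Per the submitters' processing notes and the methods, the authors discarded rRNA, tRNA, spike-in and adapter reads, aligned the rest to GRCh38 with STAR 2.6.1, filtered low-complexity alignments and counted reads over Gencode 27 genes with featureCounts 1.6.5 at default settings and a minimum Phred quality of 10. Those defaults ignore strand and drop reads with several alignments or several genes, which lowers the counts of close paralogs. The deposited values are whole counts without normalization. Library totals ran from 10527216 to 21334876 counts. The members and gene lists were chosen with earlier results of these data known.

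In R 4.3.3, genes were kept by edgeR 4.0.16's filterByExpr at a minimum count of 10, scaled by TMM on the full library totals, and compared by edgeR's robust quasi-likelihood test on condition alone, with Benjamini-Hochberg adjustment over all 14476 genes tested. Full totals were used in place of totals over the tested genes after both had been run; the latter gave 2032 called genes in place of 2041 and is listed among the alternatives. The standard error is the log2 fold change divided by the root of the F statistic. CPM used the TMM-scaled totals, and TPM the length of the canonical Gencode 44 transcript, known for 98.9% of genes with a count. Counts of 0 were given an upper limit of 3 counts. Replicates of a group differed beyond sampling noise (a chi-square of 10.7 to 25.7 per degree of freedom), so each library was counted once.

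Named genes were the members, DGUOK, neighbours within 5 kb with shared reads, and, per list, a fixed set of regulators plus called genes (where over 4, the 2 largest rises and the 2 largest falls). An item that this rule covers is not reported here. Alternatives were RLE and upper-quartile scaling, library sizes without the 20 most abundant genes, testing with no count filter, DESeq2 1.42.0 (plain or shrunken fold changes), a replicate block, each library left out, and no fold threshold. Totals over tested genes and exon union lengths were added after seeing the data.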

Additional observations from a re-analysis of the deposited data

How the results depend on the processing

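The members called were the same in number, 2 and both lower, in all 14 fits tried beside the one reported, and 3 at the adjusted p alone. Over these fits HPX ran from −2.62 to −2.0 and HP from −1.20 to −0.87 on the log2 scale, and both were called in each. ORM1 (−0.18 to −0.10), ORM2 (−0.40 to −0.27) and SAA4 (−1.60 to −0.57) were called in none. HAMP turned sign without siControl replicate 1, and ran from −0.093 to 0.47 when a library was left out. SMAD7 ran from −0.089 to 0.20 in the same way. The number of genes called lay between 1704 and 1935 when a library was left out, and DESeq2 gave 2151. Rescaling moved the median log2 fold change of all genes by at most 0.017.

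The summed level of the members had a log2 difference of −0.45, and of −0.66 without ORM1, its most abundant member, since ORM1 differed least among the abundant members. The ratio of HP to HPX stayed higher in siDGUOK with 0.5 or 5 counts added in place of 1.

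The replicate numbers gave no pairing. Same-numbered libraries of the groups correlated at 0.024, 0.017 and −0.0022 after the group means were removed. With the replicate block, 2077 genes and 2 members were called, with HPX at −2.49, HP at −1.10, and ORM1, ORM2, SAA4 and HAMP at −0.14, −0.31, −1.23 and 0.22, and ATOH8 lost its call.

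Ratios of SAA1 to SAA2 and of SAA1 to SAA4 had been planned and were not run, because SAA2 was not analysed here and SAA1 was at 0 in 5 libraries. Low counts limit CRP, SAA1, LBP, SAA4, HAMP and, in siDGUOK cells, HPX, and shared or paralogous reads limit ORM1, ORM2, HP, SAA1 and SAA4.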
